A study of Mus musculus with 4 samples.

Results

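Cluster 1 is a group of cells marked by the transcription factor genes Rax and Lhx2, 1 of 15 numbered groups that the authors made from single cells of differentiating mouse embryonic stem cells. Its members here are the genes that the authors' deposited marker table lists with the cluster number 1. There were 78 of them among the 1197 genes of the table, 47 with a higher and 31 with a lower level than in all other cells. The series held 4 libraries with 1 library in each group, made from BRG1 3XFLAG cells (a tagged BRG1) without or with a further Brm knockout. Both genotypes were taken at the mesoderm stage and at the cardiac stage of a directed cardiac differentiation, at passage 2 to 4. The sources used here do not say whether the knockout line is a single clone. The table names no library and holds no cell numbers, so genotype and stage were not compared and no value below has a replicate, an error or a test.

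Rax and Lhx2 are homeodomain genes of the eye field, the patch of the anterior neural plate that gives rise to the eyes, and of the forebrain. Rax is also a gene of the developing hypothalamus, the ventral forebrain region where Nkx2-1, Tbx3, Fgf10 and Bmp4 are known to act as well. Sox2 is the neural stem cell factor that is shared with pluripotent cells. The directed protocol aims at heart cells, and the labels call the cells mesoderm or cardiac progenitors.

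Promoters are shown for 4 of the higher genes, because Lhx2, Nkx2-1 and Lmo1 are transcription regulators that mark the cluster and Id2 is a gene that BMP signalling is known to induce, although signalling itself was not measured here. The sequences come from RefSeq, on GRCm38.p6, while the authors' reads were aligned to mm9 per the submitters' processing notes. They run from 250 bases before to 50 bases after a start site, 5′ to 3′ on the strand of the gene. Of the 78 genes, 56 had such a promoter and 22, Rax and Tbx3 among them, did not. Capitals mark TAATTA, a core that many homeodomain proteins bind, and GGCGCC, a GC-rich core bound by SMAD proteins downstream of BMP. Each reads the same on both strands, and the letters cannot overlap each other. For Lhx2 and Lmo1, with 2 promoters each, the one with more kinds of these motifs was shown, and at a tie the lower start. These promoters were thus picked by their matches.

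The Lhx2 promoter shown, 1 of 2 in that set (chr2:38339031-38339330, plus strand) held 1 GGCGCC, Nkx2-1 (chr12:56536859-56537158, minus strand) held neither, the Lmo1 promoter shown, also 1 of 2 (chr7:109175100-109175399, minus strand) held 1 TAATTA and 2 GGCGCC, and Id2 (chr12:25096043-25096342, minus strand) held 1 GGCGCC.
Lhx2: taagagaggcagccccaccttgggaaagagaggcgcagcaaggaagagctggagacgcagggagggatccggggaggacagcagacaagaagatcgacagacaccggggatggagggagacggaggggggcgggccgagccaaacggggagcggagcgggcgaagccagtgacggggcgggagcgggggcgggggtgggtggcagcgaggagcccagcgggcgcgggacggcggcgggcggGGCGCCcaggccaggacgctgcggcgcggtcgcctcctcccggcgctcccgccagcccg
Nkx2-1: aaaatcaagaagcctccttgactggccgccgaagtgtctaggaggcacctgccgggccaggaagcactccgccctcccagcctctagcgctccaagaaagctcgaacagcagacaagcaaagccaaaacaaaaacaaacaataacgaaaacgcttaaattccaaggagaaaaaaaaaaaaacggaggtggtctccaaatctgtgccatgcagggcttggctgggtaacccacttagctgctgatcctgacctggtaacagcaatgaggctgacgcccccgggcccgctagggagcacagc
Lmo1: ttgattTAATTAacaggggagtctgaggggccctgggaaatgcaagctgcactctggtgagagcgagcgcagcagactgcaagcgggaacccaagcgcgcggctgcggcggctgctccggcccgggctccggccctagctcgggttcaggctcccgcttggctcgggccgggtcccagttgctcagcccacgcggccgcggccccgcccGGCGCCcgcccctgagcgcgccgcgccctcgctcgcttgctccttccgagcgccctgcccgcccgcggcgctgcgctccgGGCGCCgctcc
Id2: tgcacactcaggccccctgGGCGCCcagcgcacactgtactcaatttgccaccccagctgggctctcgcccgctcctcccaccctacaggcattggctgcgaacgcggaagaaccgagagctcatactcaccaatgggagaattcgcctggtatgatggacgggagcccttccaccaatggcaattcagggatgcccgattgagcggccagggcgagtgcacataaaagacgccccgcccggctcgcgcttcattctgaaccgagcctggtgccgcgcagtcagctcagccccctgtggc

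GGCGCC was present in 23.9% of the 46 promoters of higher genes, 20.0% of the 30 promoters of lower genes and 21.2% of the 1177 promoters of all genes in the marker table, against 11.9% of all 32851 promoters. TAATTA was present in 4.35% of the promoters of higher genes, 3.33% of those of lower genes, 2.38% of those of all genes in the marker table and 5.29% of all promoters. The first of these shares is 2 promoters, both of Lmo1. The shares were not tested, and a match or its absence says nothing about binding.

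The smallest listed change was 0.50 on the natural log scale, which is a fold of 1.65. Every entry of the table reached that size and was detected in at least 25.1% of cells inside or outside its cluster. The share of table genes listed higher for cluster 1 was 3.93%, and the share listed lower was 2.59%. These genes define the cluster, which was made from the same cells' expression, so their folds are a description. Folds of the higher genes ran from 1.65 to 5.97 with a median of 2.03, beside a median of 2.10 over the higher entries of the other clusters, in the authors' deposited table. Lower genes ran from 1.66-fold to 3.87-fold with a median of 2.02, beside 1.96 elsewhere, in that deposited table. Uchl1 at 1.65-fold higher and 2810417H13Rik at 1.66-fold lower lay nearest to the threshold in the authors' deposited table. Sizes solved from the detection shares put cluster 1 at 13.3% of all cells.

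All 6 marker genes given with the cluster were listed higher. Rax, the leading gene, was found in 71.0% of cluster 1 cells and 4.6% of other cells, with a 5.97-fold higher level, in the authors' deposited table. Droplet libraries also catch free RNA, and its part in the low shares outside the cluster was not tested. In 29.0% of the cells of cluster 1 no Rax was found, which covers both cells without it and cells where it was missed. Lmo1, a LIM-only transcription cofactor, was found in 68.7% and 12.5% of cells and was 4.12-fold higher, per the authors' deposited table. Lhx2 was found in 50.9% and 4.4% of cells, at a 3.57-fold higher level, per the authors' deposited table. For Tbx3, a T-box repressor, the authors' deposited table gave 45.3% and 3.2% of cells and a 3.26-fold higher level. The retinoic acid binding gene Crabp2 was present in 63.7% and 14.3% of cells and 3.10-fold higher, and Sox2 in 44.9% and 14.9% and 2.05-fold higher, per the authors' deposited table. The 3 genes with the largest ratio of detection inside to outside were Rax, Tbx3 and Lhx2, at 15.4, 14.2 and 11.6.

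**Figure D1:**
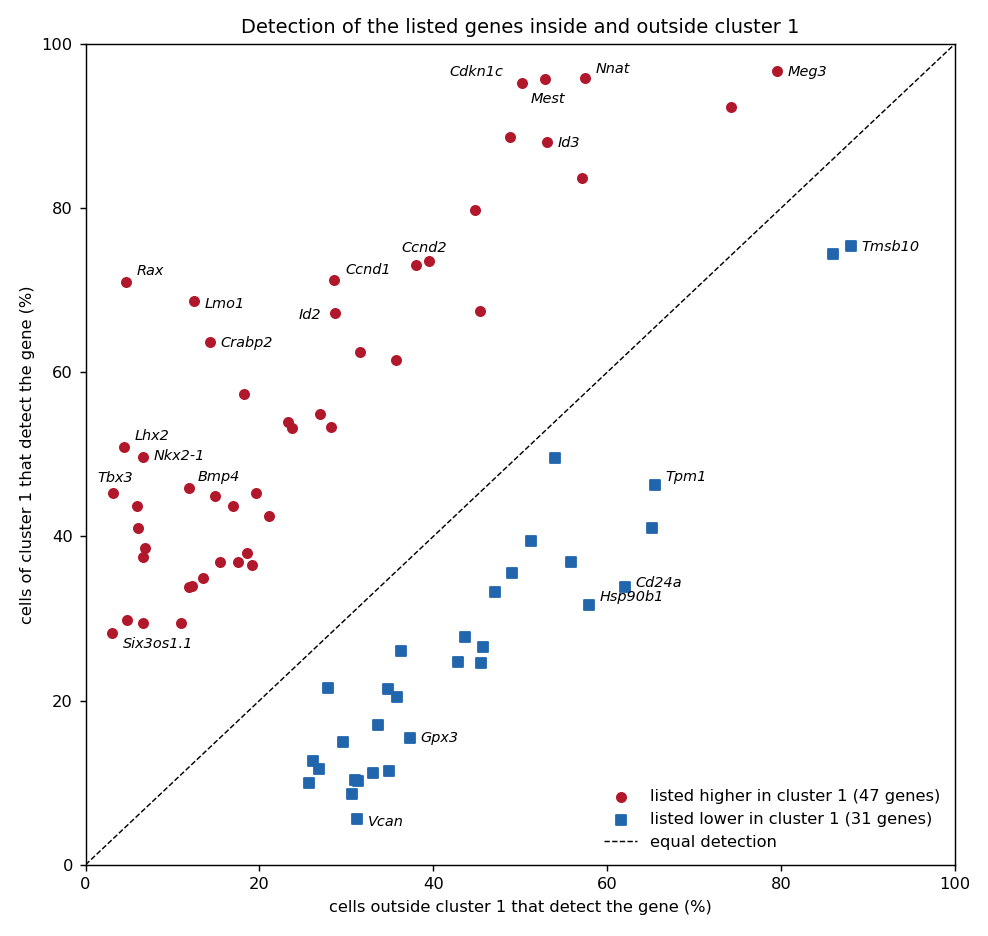
Percent of cells of cluster 1 (vertical axis) and of all other cells (horizontal axis) in which each listed gene was detected, from the authors' deposited table, with circles for the 47 higher genes, squares for the 31 lower genes and a dashed line of equal detection. Rax, Lhx2 and Tbx3 sit at the left edge, below 5% outside, while Cdkn1c, Mest and Nnat are detected in over 95% of cells inside and over 50% outside.

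Genes of the eye field and hypothalamus were mostly listed higher. Of 22 genes on that list, 7 were in the table and 6 were listed higher in cluster 1, where the background was 3.93%. That count was largely fixed beforehand, since Rax, Lhx2, Tbx3 and Fgf10 are in the table only through cluster 1, and Rax, Lhx2, Lmo1 and Tbx3 are markers given with it. The 6 were Rax, Lhx2, Nkx2-1, Tbx3, Fgf10 and Lmo1, and the remaining one, Foxd1, was listed higher for clusters 5, 10 and 11 only. Nkx2-1, a homeodomain factor of the ventral forebrain and also of lung and thyroid, was found in 49.7% of cluster 1 cells and 6.6% of others, 3.05-fold higher, per the authors' deposited table. Six3os1.1 carries the name of the noncoding RNA transcribed divergently from the forebrain gene Six3, with a suffix in the file. It was found in 28.2% and 3.0% of cells and was 2.15-fold higher, per the authors' deposited table. The sources used here do not say whether reads were counted by strand, and its reads may not be separable from those of overlapping genes. The lists were chosen with earlier results of these data known, so the count is a description.

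Other forebrain and neural regulators joined them. Fezf2, a zinc finger factor of the forebrain, was found in 37.5% of cluster 1 cells and 6.6% of others, at a 2.30-fold higher level, in the authors' deposited table. On the forebrain list 3 of 6 table genes were higher (Lhx2, Fezf2 and Fgf8), and Otx2, Lhx5 and Dbx1 were not listed for cluster 1. On the neural progenitor list 4 of 8 table genes were higher (Rax, Lhx2, Crabp2 and Sox2) and 2 were lower (Crabp1 and Sfrp1). Rax and Lhx2 are in the table only through cluster 1, and all 4 higher genes of the neural progenitor list are markers given with it. Both counts were thus partly fixed beforehand, and the background was 3.93%. Ssbp2, which belongs to the complexes that LIM-domain factors such as Lhx2 and Lmo1 form with LDB proteins, was found in 53.2% and 23.7% of cells and was 1.87-fold higher, per the authors' deposited table.

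The ligand genes Fgf10, Bmp4 and Fgf8 were listed higher, while the secreted factor genes Sfrp1 and Igf2 were listed lower and Shh was not listed for the cluster. Fgf10 was found in 41.0% of cluster 1 cells and 6.0% of others and was 2.67-fold higher, per the authors' deposited table. Bmp4, a BMP ligand, was found in 45.9% and 11.9% and was 2.43-fold higher, per the authors' deposited table. Fgf8, another FGF ligand, was found in 36.9% and 17.5% of cells, at 1.69-fold, in the authors' deposited table. Scube1, which encodes a secreted protein with EGF-like repeats, was found in 29.8% and 4.8% of cells and was 2.03-fold higher, per the authors' deposited table. Fgf8 and Fgf10 were 2 of the 3 FGF pathway genes that the table holds, and Fgf5, a gene of the epiblast, was not listed for the cluster. Fgf10 is in the table only through cluster 1, and the background was 3.93%.

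The Id genes, which BMP signalling induces and whose products block basic helix-loop-helix factors, were listed higher together. Id3 was found in 88.1% of cluster 1 cells and 53.1% of others, at 2.35-fold, in the authors' deposited table. Id2 was found in 67.2% and 28.7% of cells, and Id1 in 61.5% and 35.7%, with levels 1.92-fold and 1.66-fold higher, per the authors' deposited table. With Bmp4 they made 4 of the 13 BMP and TGF-beta genes in the table, beside the background of 3.93%. The inhibitors Bambi, Smad7, Fst and Cer1 and the ligands Bmp7, Tgfb1 and Tgfb2 were among the 9 not listed for cluster 1. The clusters that list Id2 differed widely in detection, from 2.7% in cluster 7 and 4.1% in cluster 0 to 67.2% in cluster 1, 69.5% in cluster 5 and 79.6% in cluster 11, per the authors' deposited table. Bmp4 was listed higher for 1 other cluster, cluster 9, where 39.8% of cells had it in the authors' deposited table.

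On the fixed Wnt list 0 of 9 table genes were higher and 1, Sfrp1, was lower, beside backgrounds of 3.93% and 2.59%. Finding none higher among 9 is near the share over all genes. Ctnnbip1, whose product keeps beta-catenin from its TCF partners, was found in 45.3% of cluster 1 cells and 19.6% of others and was 1.95-fold higher, per the authors' deposited table. Wls, which carries Wnt ligands to the cell surface, was found in 8.6% and 30.6% of cells and was 2.02-fold lower, per the authors' deposited table. Sfrp1, a secreted Wnt antagonist, was found in 33.2% and 47.1% and was 1.82-fold lower, per the authors' deposited table. Ctnnbip1 and Wls were not on that list, and Ctnnbip1 was chosen after its values were seen. The single hedgehog gene and the 3 Notch genes in the table were not listed for the cluster.

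Imprinted genes, which are expressed from 1 parental copy and often act on growth, gave more higher genes than any other list. Of 24 genes on the list, 14 were in the table. Of these 14, 8 were higher and 1 was lower, beside backgrounds of 3.93% and 2.59%. The list was counted after the data were seen, so the count is a description. Gpc3 had been put on that list although it is an X-linked gene that is not imprinted, and without it the count was 7 of 13. Cdkn1c, the cell cycle inhibitor p57, was found in 95.2% of cluster 1 cells and 50.2% of others, 4.22-fold higher, per the authors' deposited table. Mest was found in 95.7% and 52.9% of cells and was 3.14-fold higher, per the authors' deposited table. It was as common in clusters 4, 6 and 11, in 93.7%, 92.1% and 98.5% of cells in that deposited table. Nnat, Meg3 and Peg3 were found in 95.8%, 96.7% and 92.3% of cluster 1 cells in the authors' deposited table. Their levels were 2.26-fold, 2.17-fold and 1.69-fold higher in that deposited table. Plagl1, an imprinted zinc finger factor, stood apart in being rare elsewhere, in 38.6% and 6.8% of cells, at 2.39-fold in the authors' deposited table. It is in the table only through cluster 1. Ndn was found in 53.3% and 28.2%, at 1.93-fold, per the authors' deposited table.

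Igf2, the imprinted growth factor gene, went the other way, with 39.5% of cluster 1 cells and 51.2% of others and a 1.73-fold lower level in the authors' deposited table. H19, Igf2r, Peg10, Snrpn and Gnas were in the table and not listed for cluster 1. Detection of Cdkn1c and Nnat differed widely between clusters. Nnat ranged from 5.2% of cluster 2 cells to 97.1% of cluster 12 cells in the authors' deposited table. Cdkn1c was found in 88.8% of cluster 12 cells, but in 16.2% of cluster 0, 17.8% of cluster 8, 20.5% of cluster 7 and 34.8% of cluster 3, in the authors' deposited table. Gpc3, a cell surface proteoglycan gene, was found in 83.7% and 57.1% of cells and was 1.77-fold higher, per the authors' deposited table. Igfbp2, which encodes a binding protein for insulin-like growth factors, was found in 88.7% and 48.8% of cells and was 2.50-fold higher, per the authors' deposited table.

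Of the D-type cyclin genes, which drive cells through G1, Ccnd1 and Ccnd2 were listed higher and Ccnd3 was not listed for cluster 1. Ccnd1 was found in 71.3% of cluster 1 cells and 28.6% of others, at a 2.62-fold higher level, in the authors' deposited table. Ccnd2 was found in 73.1% and 38.0% of cells and was 1.67-fold higher, per the authors' deposited table. Ccnd1 and Ccnd2 were 2 of 12 table genes on the G1 and S phase list. The other 10, and all 18 of the G2 and M phase list, were not listed for cluster 1. With backgrounds of 3.93% higher and 2.59% lower, finding none among 18 is near the share over all genes. Many of these genes, such as Cenpa, Ccnb1, Cdk1, Pcna and Mcm7, are in the table only because cluster 2 lists them lower. Single genes linked to histones and DNA replication were listed in both directions, with Hist3h2ba 1.70-fold higher, per the authors' deposited table. Nasp, a histone chaperone gene, was found in 35.5% and 49.1% of cells, and the linker histone gene Hist1h1e in 17.0% and 33.6%, in the authors' deposited table. Their levels were 1.69-fold and 1.99-fold lower there, and 2810417H13Rik, the PCNA-associated factor gene, was found in 27.8% and 43.6% of cells per the authors' deposited table.

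Several higher genes chosen after their values were seen are known from nerve cells. The fixed lists of neuron genes (0 of 10) and of cytoskeleton and adhesion genes (0 of 14) held no higher gene. The background was 3.93%, so finding none in lists of this size is near the share over all genes. Mtap1b, a microtubule-associated protein gene, was found in 73.5% of cluster 1 cells and 39.5% of others and was 2.13-fold higher, per the authors' deposited table. The profilin gene Pfn2 and the axonal kinesin gene Kif1a were 1.99-fold and 1.82-fold higher, per the authors' deposited table. Uchl1, a ubiquitin hydrolase of neurons, was found in 29.4% and 11% of cells per the authors' deposited table. The RNA-binding gene Celf2 was 1.77-fold higher, and Vim, the intermediate filament gene of mesenchyme and neural progenitors, 1.94-fold higher, per the authors' deposited table. None of the 10 neuron genes in the table, such as Tubb3, Elavl3, Neurog2 and Stmn2, was listed for cluster 1, and all 10 were listed higher for cluster 12. All but Stmn2, which cluster 3 also lists higher, are in the table only through cluster 12. Both outcomes were thus largely fixed beforehand.

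The remaining higher genes had mixed roles. Cpne5, a calcium-dependent membrane-binding copine gene, was found in 43.7% of cluster 1 cells and 5.9% of others, 2.90-fold higher, per the authors' deposited table. The clone 6330403K07Rik was 2.45-fold and Lman1, a cargo receptor between the endoplasmic reticulum and the Golgi, 2.20-fold higher, per the authors' deposited table. Hspa4l, Arl4c, Gm1673, Klhdc8b, Hist3h2ba, Pea15a, Gja1 and Sepp1 were each between 1.66-fold and 1.95-fold higher, per the authors' deposited table. Among them, Gja1 encodes the gap junction protein connexin 43 and Arl4c a small GTPase.

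The higher genes fell into 3 kinds by how common they were elsewhere. In other cells 11 of the 47 were found in under 10% of cells, 29 in 10% to 50%, and 7 in 50% or more. Cluster 1 held 70.3% of all cells with Rax, 68.4% of those with Tbx3 and 63.9% of those with Lhx2, by shares worked out from the deposited values. It also held 59.0% of the cells with Six3os1.1, 53.6% with Nkx2-1, 53.2% with Cpne5 and 51.1% with Fgf10. These 7 were the only higher genes for which the cluster held over 50% of the detecting cells. For Meg3 the share was 15.7%, close to the 13.3% of all cells that the cluster makes up. The ratio of detection exceeded the fold of the mean level in all 11 genes that were rare elsewhere and in 0 of the 7 common ones. For each of the 7, even detection in every cell of cluster 1 would leave the ratio below the fold, so that 0 was fixed beforehand. The sources used here do not name the constant added before logs were taken, which for rare genes makes the deposited fold smaller than the ratio of means.

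The strongest lower genes were markers of other clusters. Gpx3, a secreted glutathione peroxidase gene, was found in 15.4% of cluster 1 cells and 37.3% of others and was 3.87-fold lower, per the authors' deposited table. Tpm1, a tropomyosin gene, was 3.46-fold lower, and the keratin gene Krt8 was 3.41-fold lower, per the authors' deposited table. Krt8 was found in 11.2% and 33.1% of cells, and its partner Krt18 in 26% and 36.3%, in the authors' deposited table. Of 7 epithelial genes in the table these 2 were listed lower, beside the background of 2.59%. Vcan, a matrix proteoglycan gene, had the lowest detection of any listed gene, in 5.6% of cluster 1 cells against 31.2% of others, per the authors' deposited table.

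Leading genes of clusters 0 and 7 were lower as well. Crabp1 was found in 10.2% of cluster 1 cells and was 3.06-fold lower, the opposite of its relative Crabp2, in the authors' deposited table. In clusters 0 and 7, Crabp1 was found in 79.9% and 81.2% of cells per the authors' deposited table. Ifitm1, an interferon-induced membrane protein gene, was found in 11.4% of cluster 1 cells and 34.9% of others, at 2.87-fold lower, per the authors' deposited table. The chaperone gene Clu was 2.26-fold lower and Prtg, a receptor gene of early neural and mesodermal tissue, 1.72-fold lower, per the authors' deposited table. Of the 31 lower genes 10 were listed higher in cluster 0 and 11 in cluster 7, which list 37 and 40 of all 1197 table genes as higher.

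Other lower genes had mixed roles. Hsp90b1 and Hspa5, the main chaperones of the endoplasmic reticulum, were found in 31.7% and 36.9% of cluster 1 cells against 57.9% and 55.9% of others in the authors' deposited table. Cd24a, a surface glycoprotein gene, was found in 33.8% and 62.0% of cells and was 2.21-fold lower, per the authors' deposited table. Emb, Tagln2 and Lgals1 were 2.11-fold, 2.16-fold and 2.21-fold lower, per the authors' deposited table. Slc2a1, the glucose transporter GLUT1, was found in 24.6% and 45.5% of cells and was 1.87-fold lower, per the authors' deposited table. No other gene of 15 table genes on the glycolysis and hypoxia list had an entry for the cluster. With backgrounds of 3.93% higher and 2.59% lower, 1 entry among 15 is near the share over all genes. The actin-sequestering thymosin gene Tmsb10 and the dynein light chain gene Dynll1 stayed common, in 75.4% and 74.4% of cluster 1 cells in the authors' deposited table.

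Part of the lower genes depended on cluster 2, which is led by the contractile genes Actc1 and Myl7, being in the reference. Of the 31 lower genes 22 were listed for cluster 2, and 10 of those were higher there. Cluster 2 lists 580 of all 1197 table genes, 272 of them as higher. With cluster 2 left out of the other cells, 15 of the 22 kept a natural log change of at least 0.50 in size, 6 stayed lower but under it, and 1 turned. Myl9, a myosin light chain gene that the authors' deposited table gives as 2.65-fold lower in cluster 1, was then 1.33-fold higher than in the cells that were left. Gpx3 and Tpm1 were 1.48-fold and 1.46-fold lower without cluster 2, in place of 3.87-fold and 3.46-fold. Rbpms, Ccng1, Csrp1 and Hcfc1r1 also stayed lower, by 1.39-fold, 1.31-fold, 1.18-fold and less than that. Crabp1 and Ifitm1 were 3.40-fold and 3.24-fold lower without cluster 2, further down than before. Of the 13 higher genes that cluster 2 lists, 12 stayed past the threshold and Ccnd2 fell under it, to a natural log change of 0.40.

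**Figure D2:**
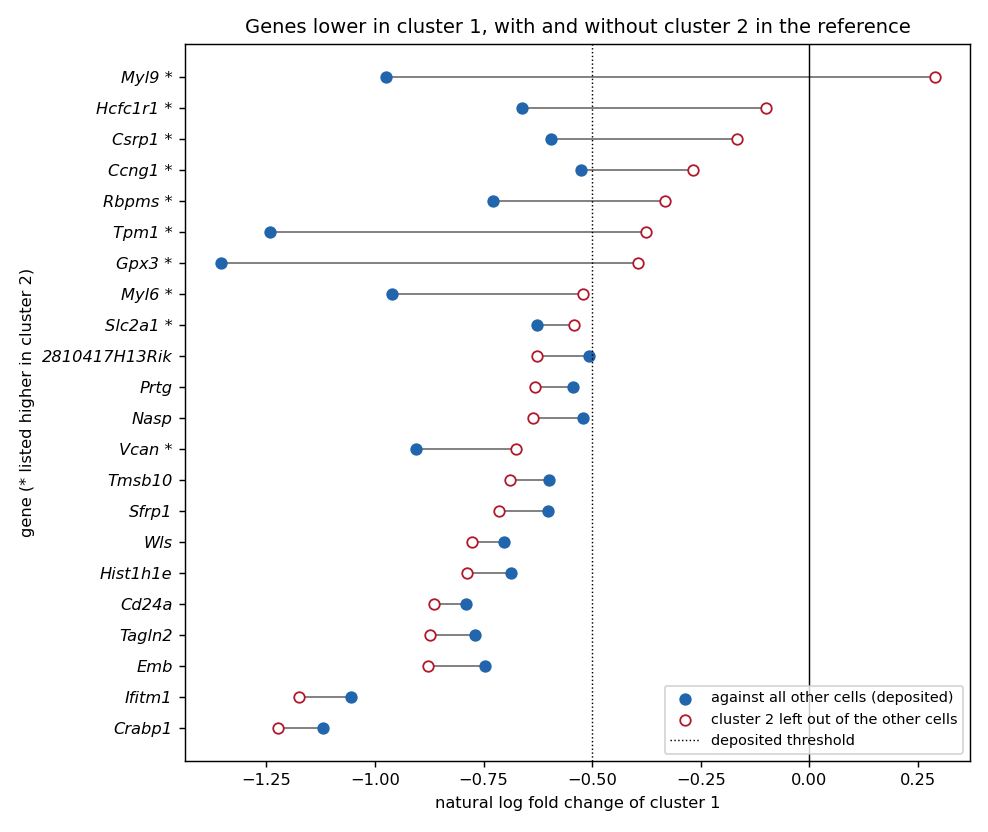
Natural log fold change of cluster 1 (horizontal axis) for the 22 lower genes that cluster 2 also lists, against all other cells (filled, the authors' deposited values) and with cluster 2 left out of them (open), with the threshold of -0.50 dotted. The genes marked with a star are higher in cluster 2 and move to the right, and Myl9 crosses 0.

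The same genes were followed through the other 14 clusters. Every cluster was set against all other cells, so the comparisons share most of their reference cells and a common listing is not independent evidence. Detection inside a cluster does not depend on the reference and is set side by side below. For 11 of the 47 higher genes there was no entry in any other cluster, and these were Rax, Lhx2, Tbx3, Cpne5, Fgf10, Plagl1, Six3os1.1, Scube1, Hspa4l, Pea15a and Sepp1. A further 6 were listed higher for cluster 1 alone and lower elsewhere, which made 17. The matching shares for the higher genes of other clusters and for all table genes were not worked out. Whether 11 or 17 of 47 is unusual was thus not tested. No lower gene was listed for cluster 1 alone, and the median lower gene was also lower in 6 other clusters. In clusters 0, 3 and 7 none of the 47 higher genes was listed higher, and 15, 14 and 14 of them were listed lower. Of all 1197 table genes these clusters list 37, 63 and 40 as higher and 45, 36 and 34 as lower. With so few listed higher, finding none among 47 is near the share over all genes.

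**Figure D3:**
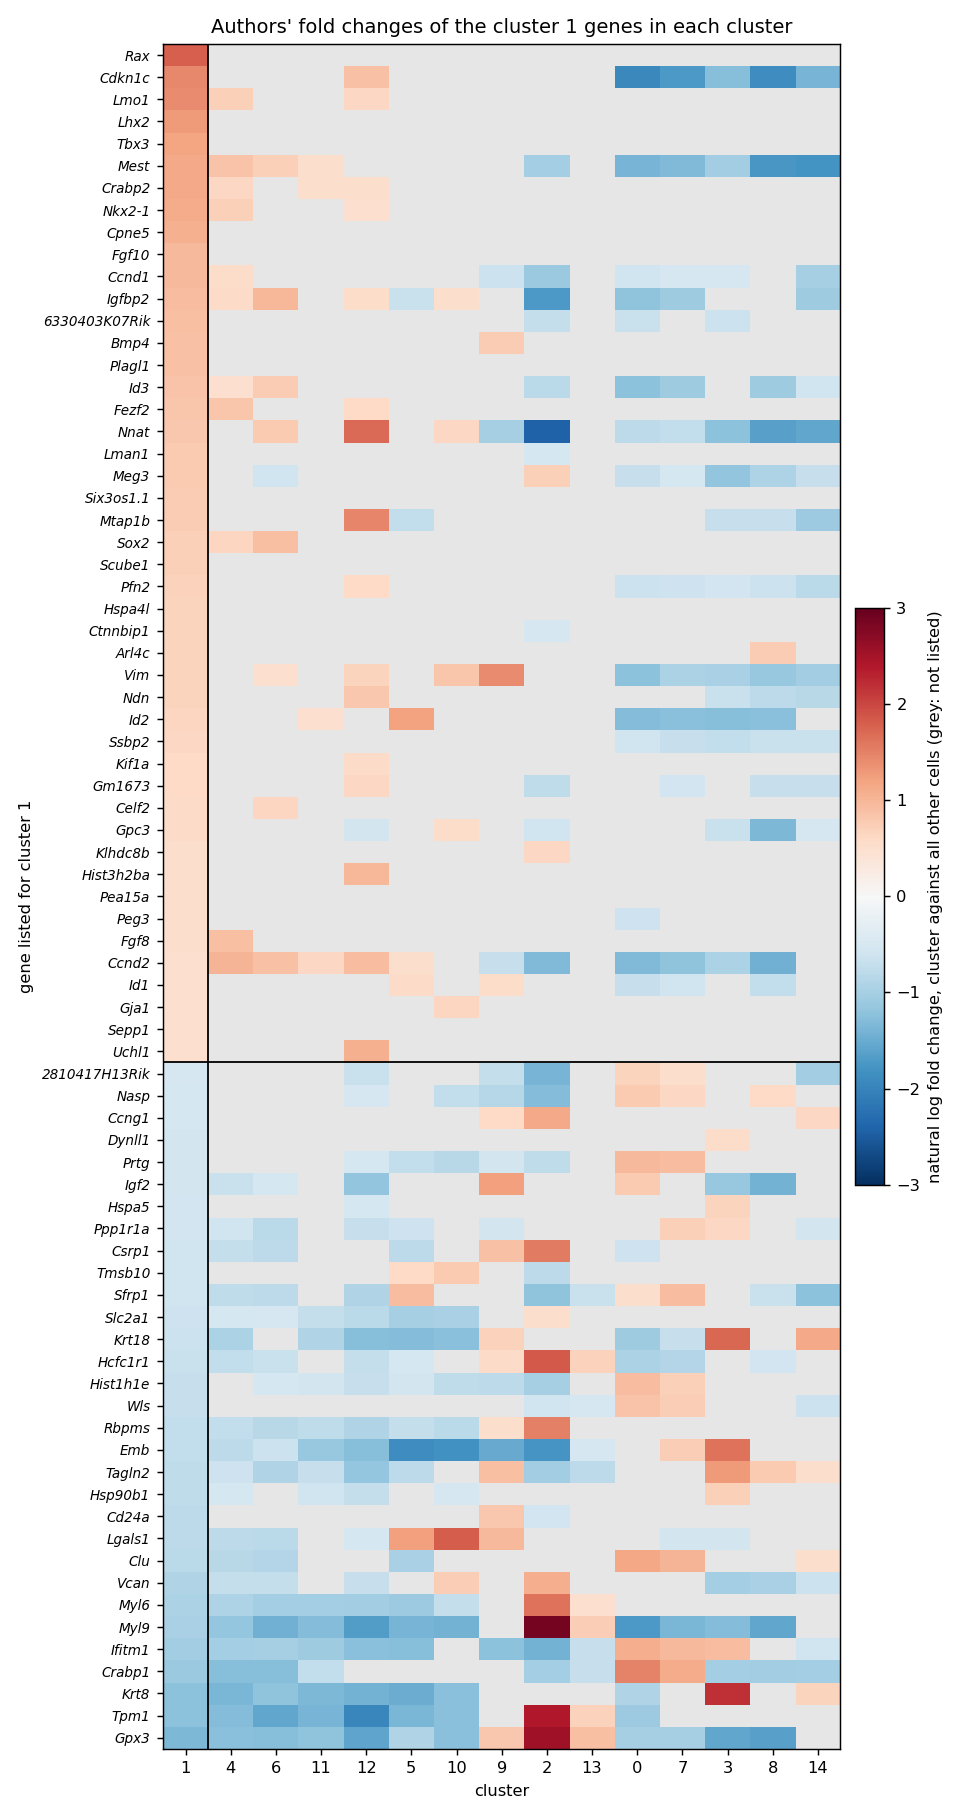
Natural log fold change, in the authors' deposited table, of 77 of the 78 genes listed for cluster 1 (rows) in each of the 15 clusters (columns), red for higher, blue for lower and grey where a gene is not listed. The rows of Rax, Lhx2 and Tbx3 are grey in the other 14 clusters, and many of the lower genes are also blue in clusters 4, 6, 11 and 12.

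Cluster 4, whose leading genes include Fgf8, Dbx1, Fezf2 and Otx2, held many of the same genes. The table has 23 genes higher in it, 1.92% of all, and 11 of them were higher in cluster 1 too, which is 47.8% of its list and 23.4% of that of cluster 1. With cluster 2 out of the reference the count was 7. Nkx2-1 was found in 49.7% of cluster 1 cells and 39.4% of cluster 4 cells in the authors' deposited table. Lmo1 was found in 68.7% and 52.7%, Crabp2 in 63.7% and 49.0%, and Ccnd1 in 71.3% and 60.0%, in the authors' deposited table. Shares of Sox2 and of Fezf2 differed by no more than 1.1 percentage points between the 2 clusters. Fgf8 at 36.9% and 46.1% and Ccnd2 at 73.1% and 86.2% were more often found in cluster 4, per the authors' deposited table.

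Levels in the 2 clusters, worked out for the 32 genes listed for both, lay within 0.5 of each other on the natural log scale in all 32. All 32 were listed in the same direction for both. Here and in the comparisons below, such genes passed the same threshold in both clusters, which favours small gaps. Lmo1 was 1.54-fold higher in cluster 1 and Ccnd2 1.56-fold higher in cluster 4, the widest gaps each way. Genes with an entry for only 1 of the clusters could not be set side by side, and they include Rax, Lhx2, Tbx3 and Fgf10 on the side of cluster 1. The table leaves their detection in cluster 4 unknown. If every cell outside cluster 1 with Rax lay in cluster 4, 46.3% of its cells would have it, and for Tbx3 the limit would be 32.2%. These are outer limits and not estimates, as both genes missed the listing thresholds for cluster 4. Nkx2-1 passed them there at 39.4% inside and 9.7% outside, in the authors' deposited table. In the 12 clusters that do not list them, Nkx2-1 was found in 2.46% of cells and Fezf2 in 2.52%, as worked out from the deposited shares.

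Cluster 6, led by Pcp4l1, Tpbg and Wnt1, shared Sox2 with cluster 1, but none of the other 3 neural progenitor genes higher in cluster 1 (Rax, Lhx2 and Crabp2). Rax and Lhx2 are in the table only through cluster 1, so they could not be shared. Cluster 6 lists 30 genes as higher, 2.51% of the table, and 8 of them were higher in cluster 1. That is 26.7% of its list and 17.0% of that of cluster 1. The 8 were Mest, Igfbp2, Id3, Nnat, Sox2, Vim, Celf2 and Ccnd2. Sox2 was found in 44.9% of cluster 1 cells and 54.4% of cluster 6 cells, and Ccnd2 in 73.1% and 82.8%, in the authors' deposited table. Meg3 was the 1 gene listed in opposite directions, in 96.7% of cluster 1 and 63.0% of cluster 6 cells in the authors' deposited table, and its level was 3.28-fold higher in cluster 1. The other 28 genes listed for both lay within 0.5 on the natural log scale. Nkx2-1, Lmo1 and Crabp2 had no entry for cluster 6.

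Cluster 12, led by the neuronal genes Tubb3, Tubb2b and Stmn2, shared Fezf2 with cluster 1. Of the other forebrain genes higher in cluster 1, Lhx2 is in the table only through cluster 1 and so could not be shared. Fgf8 had no entry for cluster 12, which shows only that it missed the thresholds there. Cluster 12 lists 93 genes as higher, 7.77% of the table, and 16 of them were higher in cluster 1. That is 17.2% of its list and 34% of that of cluster 1. Crabp2 was found in 63.7% of cluster 1 cells and 41.0% of cluster 12 cells, Nkx2-1 in 49.7% and 28.2%, and Lmo1 in 68.7% and 48.5%, in the authors' deposited table. Mtap1b at 73.5% and 87.8% and Uchl1 at 29.4% and 46.6% were more often found in cluster 12 per the authors' deposited table. Their levels were 2.24-fold and 1.87-fold higher there, and that of Nnat was 2.62-fold higher. Gpc3 was listed in opposite directions, in 83.7% of cluster 1 and 36.5% of cluster 12 cells in the authors' deposited table. Of 40 genes listed for both clusters 30 lay within 0.5, 6 were higher in cluster 1 and 4 in cluster 12. Cluster 11 lists 10 genes as higher, and 4 of them, Crabp2, Mest, Id2 and Ccnd2, were higher in cluster 1. Crabp2 was found in 62.2% of cluster 11 cells in the authors' deposited table. All 18 genes listed for clusters 1 and 11 lay within 0.5. They were listed in the same direction for both clusters, which favours small gaps here too.

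**Figure D4:**
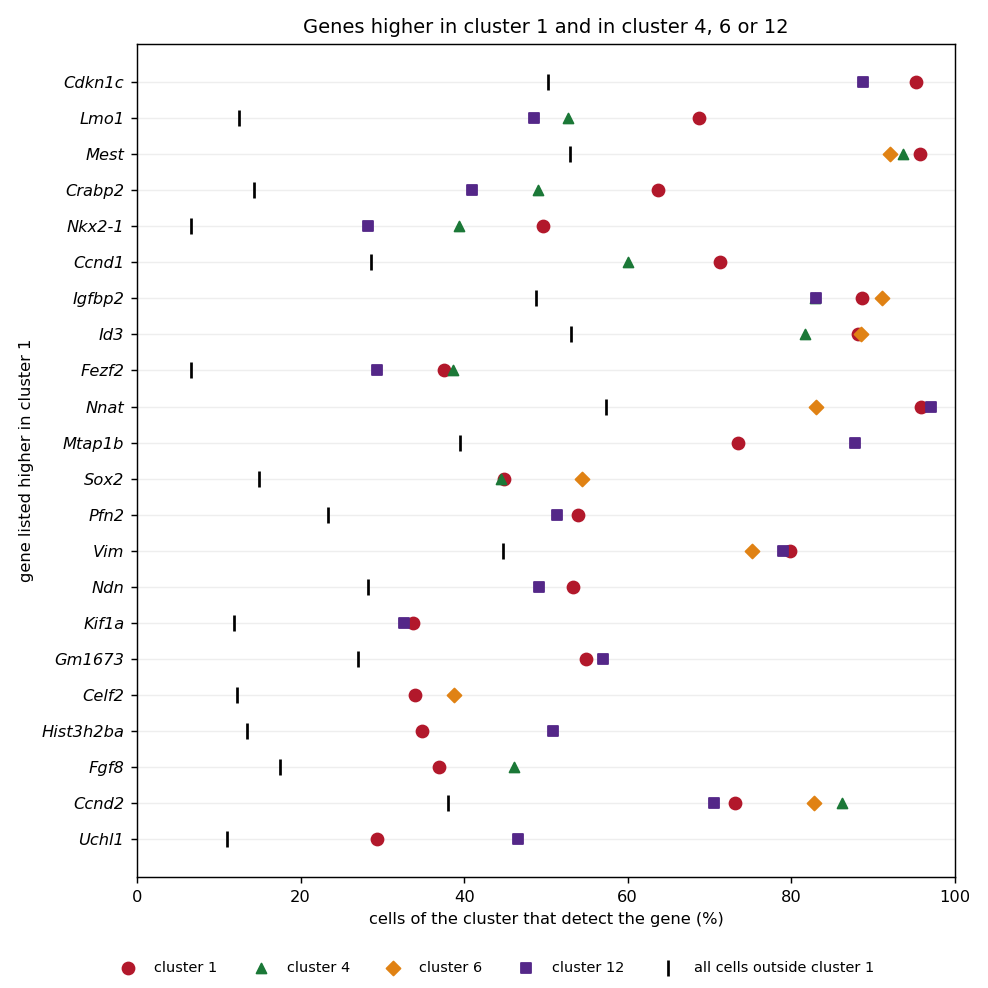
Percent of cells that detect each gene (horizontal axis) in cluster 1 (circles), in clusters 4 (triangles), 6 (diamonds) and 12 (squares) where the gene is also listed higher, and in all cells outside cluster 1 (vertical bars), for 22 genes from the authors' deposited table. Lmo1, Crabp2 and Nkx2-1 are detected most often in cluster 1, and Mtap1b, Hist3h2ba and Uchl1 more often in cluster 12.

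The markers looked up for other cell types were not among the higher genes, although some other members of the longer lists were. Of 36 markers looked up for 10 other cell types, with Foxa2 under 2 of them, 25 were in the table, none was listed higher in cluster 1 and 2 were lower (Krt8 and Krt18). The backgrounds were 3.93% higher and 2.59% lower, so finding none higher among 25 is near the share over all genes. The markers were chosen with earlier results of these data known. Sox2 of the pluripotency list, Fgf8 of the streak list and Vim of the fibroblast list, which were not among them, were higher. The markers not listed for the cluster included Pou5f1, T, Tcf15, Actc1, Tnnt2, Epcam, Sox17, Col1a1 and Shh. The endothelial markers Pecam1, Cdh5 and Kdr and the neural crest markers Sox10, Foxd3 and Tfap2a were not in the table at all. Not being listed shows only that a gene missed the thresholds and not that it was absent. On the cardiac progenitor list 4 of 11 table genes were higher (Tbx3, Fgf8, Fgf10 and Bmp4), all of which also act outside the heart, and Isl1, Hand1, Gata4, Nkx2-5 and Mef2c were not listed for cluster 1. Tbx3 and Fgf10 are in the table only through cluster 1, and the background was 3.93%. None of 26 contractile genes was higher, and 2, Tpm1 and Myl9, were lower with cluster 2 in the reference. None of the 10 mitochondrially encoded and 13 ribosomal protein genes in the table was listed for the cluster.

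The remaining lists had few entries for cluster 1. The counts below are of list members in the table. The backgrounds were 3.93% higher and 2.59% lower, and the counts were not tested against them. On the pluripotency list Sox2 was the 1 higher gene of 9 in the table, and on the list for streak and nascent mesoderm Fgf8 was higher and Ifitm1 lower among 10. Of 14 smooth muscle and fibroblast genes 1 was higher (Vim) and 2 were lower, and of 14 cytoskeleton and adhesion genes 3 were lower. Of 5 retinoic acid genes Crabp2 was higher and Crabp1 lower. Of 8 stress genes 2 were lower (Hspa5 and Ccng1, a target of p53), and of 13 chromatin and histone genes 1 was lower (Hist1h1e). Of 4 midbrain and hindbrain genes Fgf8 was higher. The 3 floor plate, 1 neural crest, 2 endothelial and blood, 11 endoderm and 3 BAF complex genes in the table had no entry for the cluster, and the table holds 0 Hox genes. The BAF list covers the complex to which Brm and BRG1 belong. Of the 78 genes 37 were in no list.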

How the data were processed

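Single-cell libraries of 4 groups were made with 10x V2 chemistry and processed with Cell Ranger and Seurat on mm9, per the submitters' processing notes and the series' design text. Cell filters, doublet treatment, clustering settings, the libraries that entered the clusters and depth are named in none of the sources used here. The authors deposited 1 table of 2212 entries. Its fold changes are log values per the file headers, which name no base. The deposited values were read as natural log, since 3 of 3 genes that could test the base fitted it and 0 of 3 fitted base 2 or 10. Detection is a deposited fraction of cells, printed here as a percent. The deposited p-values compare cells, which are not replicates, and served in 1 alternative as a filter.

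Folds are exponentials of the deposited values. Cluster sizes were solved by least squares from 407 genes listed for 2 or more clusters, since a gene's detection over all cells must agree between them (residual SD 0.0228 percentage points). Shares of detecting cells, levels between clusters and folds without cluster 2 follow from these sizes and the deposited values, and hold on the scale of the mean plus the authors' constant. The members and the 32 gene lists were chosen with earlier results of these data known. Genes to name were set by a rule: the given markers, the 15 highest and 10 lowest folds, the 10 largest detection differences each way, the 10 highest genes listed higher here alone, up to 6 genes per list, and for clusters 4, 6 and 12 the 6 shared genes with the largest detection difference each way. This gave 59 genes, and others are named after their values were seen. Of the 78 names 74 are current symbols and 77 current or older ones. The planned contrasts stayed descriptions without a test. Computation used matplotlib 3.10.9, scipy 1.17.1, pandas 2.3.3 and numpy 2.4.6 under Python 3.11.15, and the steps were tested on simulated data. The values of 1 of the 78 genes are counted but not reported here.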

Additional observations from a re-analysis of the deposited data

How the results depend on the processing

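Counts were recomputed under stricter thresholds, without some gene classes and without cluster 2 in the reference. With changes of 1 or more on the natural log scale the table listed 9 higher and 5 lower genes for cluster 1, and 9 of the higher genes had no higher entry of that size in another cluster, so that 0 were shared with cluster 4, 0 with cluster 6 and 0 with cluster 12, and 0 BMP and TGF-beta genes were left. At 0.75 there were 22 higher and 13 lower genes, 2 shared with cluster 4, 3 with cluster 6, 3 with cluster 12, and 2 BMP and TGF-beta genes. With detection in at least 50% of cells on the higher side there were 25 higher and 9 lower genes, 8 higher in no other cluster, 6 shared with cluster 4, 8 with cluster 12, and 3 eye field and hypothalamus genes. Without cluster 2 in the reference 7 genes were shared with cluster 4, and Myl9 reversed to a natural log change of 0.29. Fewer genes pass these filters by construction. The filter on deposited p-values and leaving out ribosomal, mitochondrial and predicted genes left each of the 9 counts within 1.5 times, and 3 other ways of solving the size moved it by less than the residual SD. The imprinted count was added after seeing the data, and was 2 at a natural log change of at least 1 and 5 at 0.75. No paired analysis was possible because each group holds 1 library and the table names none. Depth is unknown, so weakly detected genes cannot be told from absent ones.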
